A study of Bos taurus with 14 samples.

Results

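Respiratory complex I, the NADH:ubiquinone oxidoreductase of the mitochondrial inner membrane, was followed through the transcripts of its nuclear genes in muscle of heifers kept either outdoors at pasture or indoors on concentrate. The members were the genes whose single symbol begins with NDUFA, NDUFB, NDUFC, NDUFS or NDUFV, leaving out the assembly factors named NDUFAF, and each gene was represented by its probe set with the highest mean over the arrays. This gave 38 genes, read from 50 probe sets, of 9155 genes named by probe sets with 1 symbol and of 24016 bovine probe sets in all. The 38 genes include 6 core subunits. They also include NDUFA4 and NDUFA4L2, which the symbol rule takes in though they lie outside the complex, and both are counted among the members. The 7 subunits encoded in mitochondrial DNA were not analysed here.

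The arrays were Affymetrix Bovine arrays hybridised with RNA of M. longissimus dorsi (LD), the long muscle of the back, and each of the 14 arrays came from 1 animal. Both groups were heifers of a Charolais × Limousin cross, and which animals went to which system was decided by chance, about a year ahead of sampling. The 7 outdoor/pasture-fed heifers grazed grass and clover, and the 7 indoor/concentrate-fed heifers stayed housed and ate a concentrate of beet pulp and barley with straw, offered at an allowance meant to give a similar growth rate. Diet and housing therefore differed together and cannot be told apart. The cattle were managed as several groups within each system, which the labels do not give, so the p-values treat the animals as independent. In both groups the mean of 8 skeletal muscle markers was near the top of the scale, at 13.61 (log2) outdoors and 13.62 indoors.

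Complex I takes electrons from NADH and passes them to ubiquinone, and couples this to the pumping of protons out of the matrix. It is shaped like an L: a matrix arm holds the flavin, the iron-sulfur clusters and the quinone site, and a membrane arm holds the proton channels. The core subunits carry out the reaction and are shared with bacteria, whereas the accessory subunits surround and stabilise the core. The complex is abundant in oxidative muscle fibres, and its transcripts in whole muscle come from fibres and from the other cells of the tissue. In such bulk samples fewer cells of a type and less RNA per cell cannot be told apart.

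The 38 genes differed between the groups by small amounts, mostly in 1 direction. Each difference is the outdoor mean minus the indoor mean (log2), with the standard error (SE) of the limma fit. The deposited values are summaries that are nearly constant across all animals for many probe sets. A probe set is called flat here where its SD over the 14 arrays is 0.01 or less, and varying otherwise. There were 34 varying members, while NDUFA4L2, NDUFB1, NDUFB5 and NDUFB11 were flat and give no usable difference. Of the 34 varying members 33 were higher outdoors and 1, NDUFC1, was lower. Among all 9623 varying probe sets 47.5% were higher outdoors. The members also moved together between animals within groups, as described below, so counts of members are not counts of independent results. The median difference was 0.11 over the 34 varying members, a 1.08-fold difference, and 0.097 with the flat members included, beside -0.0077 over all varying probe sets.

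None of the 38 genes passed the test after Benjamini-Hochberg adjustment over all probe sets. Adjusted p ran from 0.187 for NDUFA12 to 0.929 for NDUFC1 among the varying members in limma, and 0.0167% of all probe sets, 4 in number, passed. At an unadjusted p under 0.05, 12 of the 34 varying members (35.3%) were higher outdoors and 0 were lower. The shares among all varying probe sets were 9.23% higher and 10.7% lower, and among all probe sets, flat ones included, 5.35% higher and 6.07% lower. The flat NDUFB1 also had an unadjusted p of 0.0238, on a difference of 1.2e-05, which brings the count over all 38 genes to 13. In no member were the 2 groups fully apart, where 0.488% of varying probe sets were apart and higher outdoors and 0.322% apart and lower. The exact permutation test over the 3432 ways to split the animals gave a p under 0.05 for 11 of the 34. The count of 13 changed with single animals left out, from 9 at the lowest to 20 at the highest. It was 20 when indoor/concentrate-fed replicate 4 was left out, and likewise 20 when this was outdoor/pasture-fed replicate 5. NDUFA12 passed the adjusted test when indoor/concentrate-fed replicate 4 was left out, with a difference of 0.22 and an adjusted p of 0.0330 in limma.

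**Figure D1:**
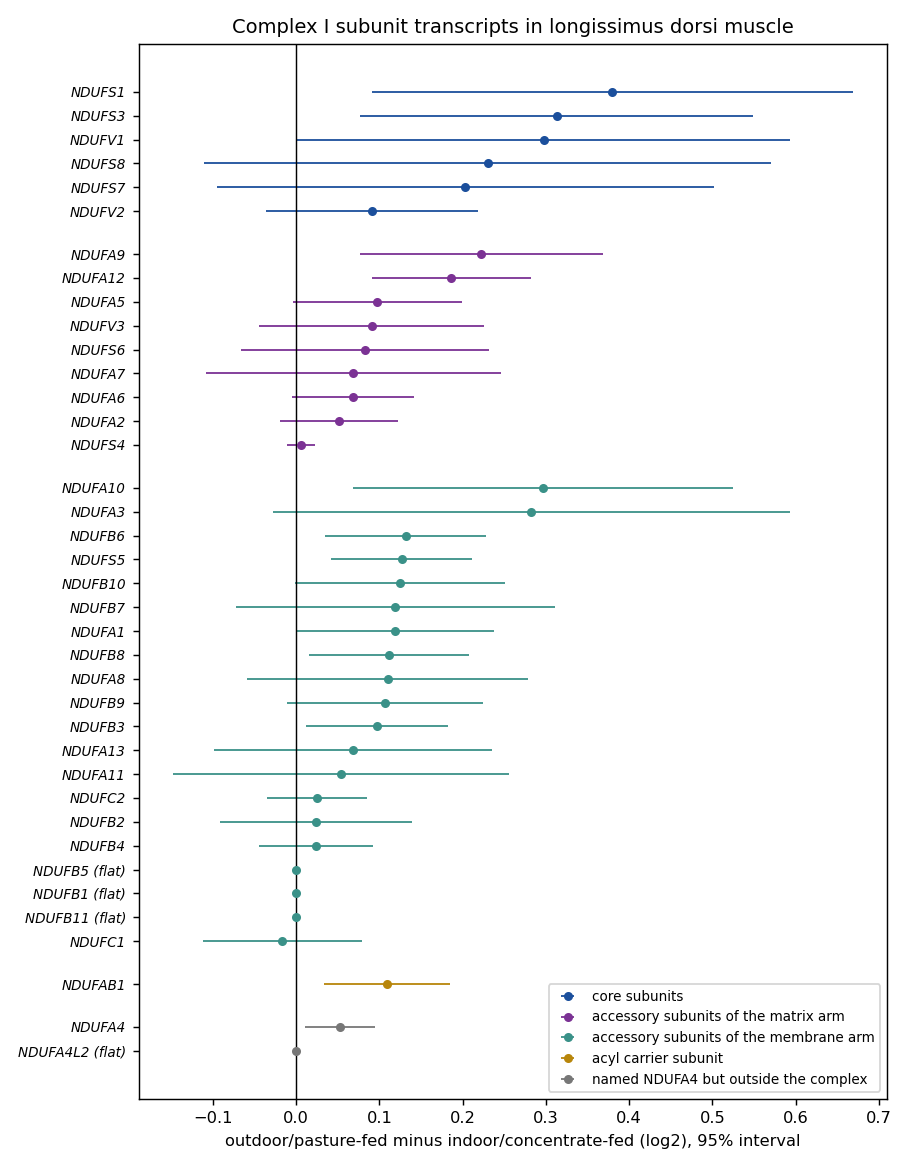
Difference of the outdoor from the indoor animals (log2, horizontal axis) for each of the 38 member genes (vertical axis), by role, with 7 animals per group. Points are fitted differences and bars their 95% intervals. All varying genes but NDUFC1 lie right of 0, and the flat probe sets sit on 0. The core subunits reach furthest in log2, with a larger median SD (0.28) than accessory subunits of the matrix (0.12) and membrane (0.11) arms.

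The 6 core subunits measured were all higher outdoors, with a median difference of 0.26, and 3 of them had an unadjusted p under 0.05. Their values also spread more, with a median SD over all animals of 0.28. The median SD was 0.12 for the accessory subunits of the matrix arm and 0.11 for the varying ones of the membrane arm. The larger differences of the core subunits thus came with a larger spread, and differences between roles were not tested. NDUFS1, the largest subunit and a carrier of iron-sulfur clusters, lay between 11.43 and 11.90 outdoors with a median of 11.65, and between 10.90 and 11.83 indoors with a median of 11.31. All 7 outdoor animals were above the indoor median, and only indoor/concentrate-fed replicate 4 reached into their range. The difference was 0.38 (SE 0.13, 1.30-fold), with an unadjusted p of 0.0142 in limma and an exact permutation p of 0.0157.

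NDUFS3, a subunit at the base of the quinone module, ranged from 12.26 to 12.80 (median 12.61) outdoors and from 11.89 to 12.48 (median 12.30) indoors. Its difference was 0.31 (SE 0.11, exact permutation p = 0.0181), and 4 outdoor animals were above the highest indoor animal. NDUFV1, which binds NADH and the flavin, ranged from 9.88 to 10.65 (median 10.41) outdoors and from 9.84 to 10.57 (median 10.00) indoors. The difference was 0.30 (SE 0.14), with a limma p of 0.0495 and an exact permutation p of 0.0559, so this subunit sat at the threshold and changed side with the test. Outdoor/pasture-fed replicate 5 was the lowest of its group and indoor/concentrate-fed replicate 4 the highest of its own.

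The remaining core subunits overlapped more widely. NDUFS8, an iron-sulfur protein on the path to the quinone, ranged from 10.67 to 11.67 (median 11.38) outdoors and from 10.71 to 11.30 (median 11.07) indoors, a difference of 0.23 (SE 0.16, exact permutation p = 0.168). NDUFS7, which holds the last iron-sulfur cluster before the quinone, ranged from 11.31 to 12.21 (median 12.17) outdoors and from 11.44 to 11.95 (median 11.84) indoors. Its difference was 0.20 (SE 0.14, exact permutation p = 0.182). Here 5 outdoor animals were above every indoor animal, but outdoor/pasture-fed replicate 5 was the lowest of all 14. NDUFV2, the partner of NDUFV1 in the NADH-oxidising tip, ranged from 12.33 to 12.45 (median 12.35) outdoors and from 12.06 to 12.48 (median 12.30) indoors. The difference of 0.091 (SE 0.059, exact permutation p = 0.156) came with a wider spread indoors (SD 0.15) than outdoors (SD 0.050).

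The 9 accessory subunits of the matrix arm were all varying and all higher outdoors, with a median difference of 0.083, and 2 of them had an unadjusted p under 0.05. NDUFA12, which sits on the matrix arm and is a paralogue of an assembly factor, had the smallest p of all members. It ranged from 12.72 to 12.80 (median 12.75) outdoors and from 12.47 to 12.79 (median 12.54) indoors. The outdoor animals were tightly grouped, with an SD of 0.032, and 6 of the 7 indoor animals were below all of them. The exception was indoor/concentrate-fed replicate 4. The difference was 0.19 (SE 0.044, 1.14-fold), with a limma p of 0.00113 and an exact permutation p of 0.00350.

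NDUFA9, which lies beside the quinone site and binds NADPH, ranged from 11.95 to 12.30 (median 12.14) outdoors and from 11.72 to 12.10 (median 11.87) indoors. Its difference was 0.22 (SE 0.067, exact permutation p = 0.00816), and all outdoor animals were above the indoor median. NDUFA5, an accessory subunit of the quinone module, ranged from 12.15 to 12.40 (median 12.28) outdoors and from 12.08 to 12.32 (median 12.15) indoors, a difference of 0.097 (SE 0.047, exact permutation p = 0.0629). The other accessory subunits of this arm were NDUFV3, NDUFS6, NDUFA7, NDUFA6, NDUFA2 and NDUFS4, and none of them had an unadjusted p under 0.05. They had differences from 0.0057 for NDUFS4, a subunit needed to complete the NADH-oxidising module, to 0.091 for NDUFV3. The SD of NDUFS4 over all 14 animals was 0.014, close to the flat limit, so its small difference also reflects a probe set that hardly varied.

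**Figure D2:**
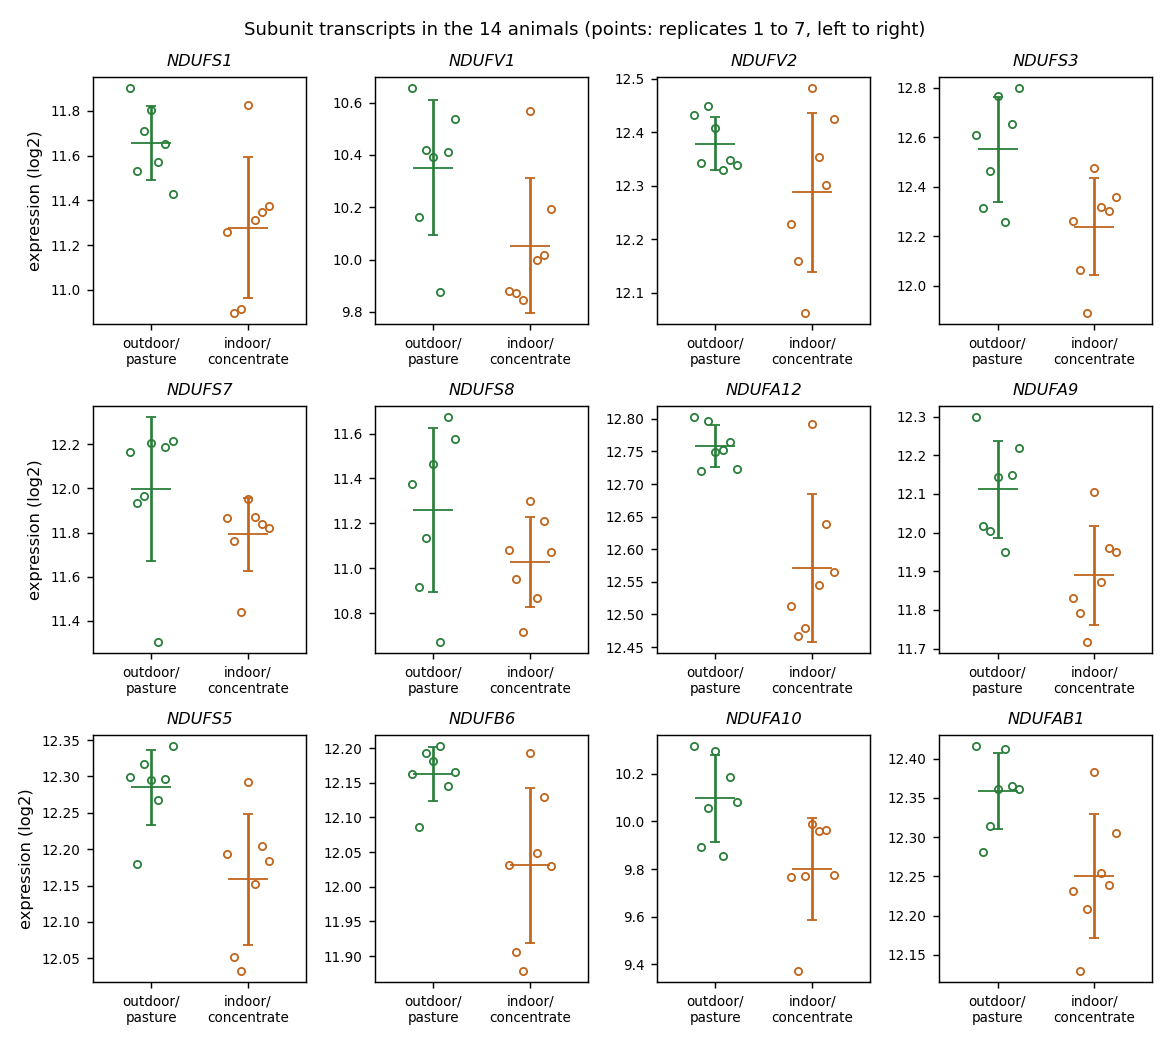
Expression (log2, vertical axes) of the 6 core subunits and 6 accessory subunits in the 7 outdoor/pasture-fed and 7 indoor/concentrate-fed animals. Points are animals in replicate order and bars the group mean ± SD; the groups overlap in all 12 panels, and indoor/concentrate-fed replicate 4 is the highest indoor point in each.

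Of the 20 accessory subunits of the membrane arm, 17 were varying, 16 of these were higher outdoors and 5 had an unadjusted p under 0.05, with a median difference of 0.11 over the 17. NDUFS5, on the intermembrane-space face, ranged from 12.18 to 12.34 (median 12.30) outdoors and from 12.03 to 12.29 (median 12.18) indoors, a difference of 0.13 (SE 0.039, exact permutation p = 0.00991). In it 5 outdoor animals were above all indoor animals. NDUFB6, of the far end of the membrane arm, ranged from 12.09 to 12.20 (median 12.17) outdoors and from 11.88 to 12.19 (median 12.03) indoors, a difference of 0.13 (SE 0.044, exact permutation p = 0.00991). NDUFA10, a subunit with a nucleoside-kinase fold, ranged from 9.85 to 10.32 (median 10.08) outdoors and from 9.37 to 9.99 (median 9.78) indoors. Its difference of 0.30 (SE 0.10, exact permutation p = 0.0128) was the largest of this arm, and all 7 outdoor animals were above the indoor median.

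NDUFB8 and NDUFB3 also had an unadjusted p under 0.05, with differences of 0.11 (SE 0.044) and 0.097 (SE 0.039). Among the rest, NDUFA3 differed by 0.28 with an SE of 0.14 that left its 95% interval, -0.028 to 0.59, across 0. NDUFB10, NDUFA1, NDUFB7, NDUFA8 and NDUFB9 had differences from 0.11 to 0.12. NDUFA13, NDUFA11, NDUFC2, NDUFB2 and NDUFB4 had differences from 0.024 to 0.068. NDUFC1, a small subunit next to NDUFC2, was the single varying member lower outdoors, by -0.017 (SE 0.044). Its sign turned without outdoor/pasture-fed replicate 3 or replicate 7.

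NDUFAB1, the mitochondrial acyl carrier protein, is bound to both arms of the complex and also serves fatty acid and lipoic acid synthesis. It ranged from 12.28 to 12.42 (median 12.36) outdoors and from 12.13 to 12.38 (median 12.24) indoors, a difference of 0.11 (SE 0.035, exact permutation p = 0.00991). NDUFA4 was first counted as a complex I subunit and is now placed in complex IV, cytochrome c oxidase. It ranged from 13.39 to 13.46 (median 13.42) outdoors and from 13.31 to 13.43 (median 13.36) indoors, a difference of 0.052 (SE 0.019, exact permutation p = 0.0227). NDUFA4L2, its paralogue that is known for induction by hypoxia, was flat at 6.11 in both groups.

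More than 1 probe set existed for 10 of the genes, and these further probe sets were not always alike. The second varying probe set of NDUFS1 gave a difference of 0.27 (SE 0.088, exact permutation p = 0.0117), close to that of the first, 0.38. The second probe set of NDUFAB1 gave 0.29 (SE 0.10). For NDUFS3 the second probe set gave 0.011 (SE 0.15) where the first gave 0.31, and for NDUFB2 it gave 0.069 (SE 0.054) where the first gave 0.024. NDUFA5 had 3 probe sets with differences of 0.097, 0.066 and -0.21, and the last, with an SE of 0.090 and an exact permutation p of 0.0379, ran the opposite way. With the mean of the 3 the difference of NDUFA5 was -0.014. The further probe sets of NDUFA11, NDUFA4, NDUFA4L2, NDUFA7 and NDUFB1, and the last of NDUFS1, were flat.

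The level of the whole set of subunits also differed between animals of the same group. The mean over the 34 varying members was 11.90 ± 0.098 (SD, n = 7) outdoors, from 11.74 to 11.99, and 11.77 ± 0.10 (SD, n = 7) indoors, from 11.66 to 11.95. These ranges overlap, and the order of the animals mixed the groups. From the highest down, outdoor/pasture-fed replicates 1, 6 and 7 were followed by indoor/concentrate-fed replicate 4, with outdoor/pasture-fed replicates 4 and 3 next. The lowest 3 were outdoor/pasture-fed replicate 5 at 11.74 and indoor/concentrate-fed replicates 2 and 3 at 11.67 and 11.66. Several neighbours in this order differed by less than 0.01, such as outdoor/pasture-fed replicate 4 at 11.954 and indoor/concentrate-fed replicate 4 at 11.954.

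Indoor/concentrate-fed replicate 4 was the highest animal of its group in 30 of the 34 members. Indoor/concentrate-fed replicates 2 and 3 were the lowest of that group in 14 members each. Outdoors, replicate 5 was the lowest in 18 members and replicate 2 in 11, while replicate 1 was the highest of all 14 animals in 15 members. Outdoor/pasture-fed replicate 5 was not low throughout: it was low in the core subunits NDUFS7 and NDUFS8, and high in NDUFC1, NDUFAB1, NDUFB8 and NDUFB6.

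**Figure D3:**
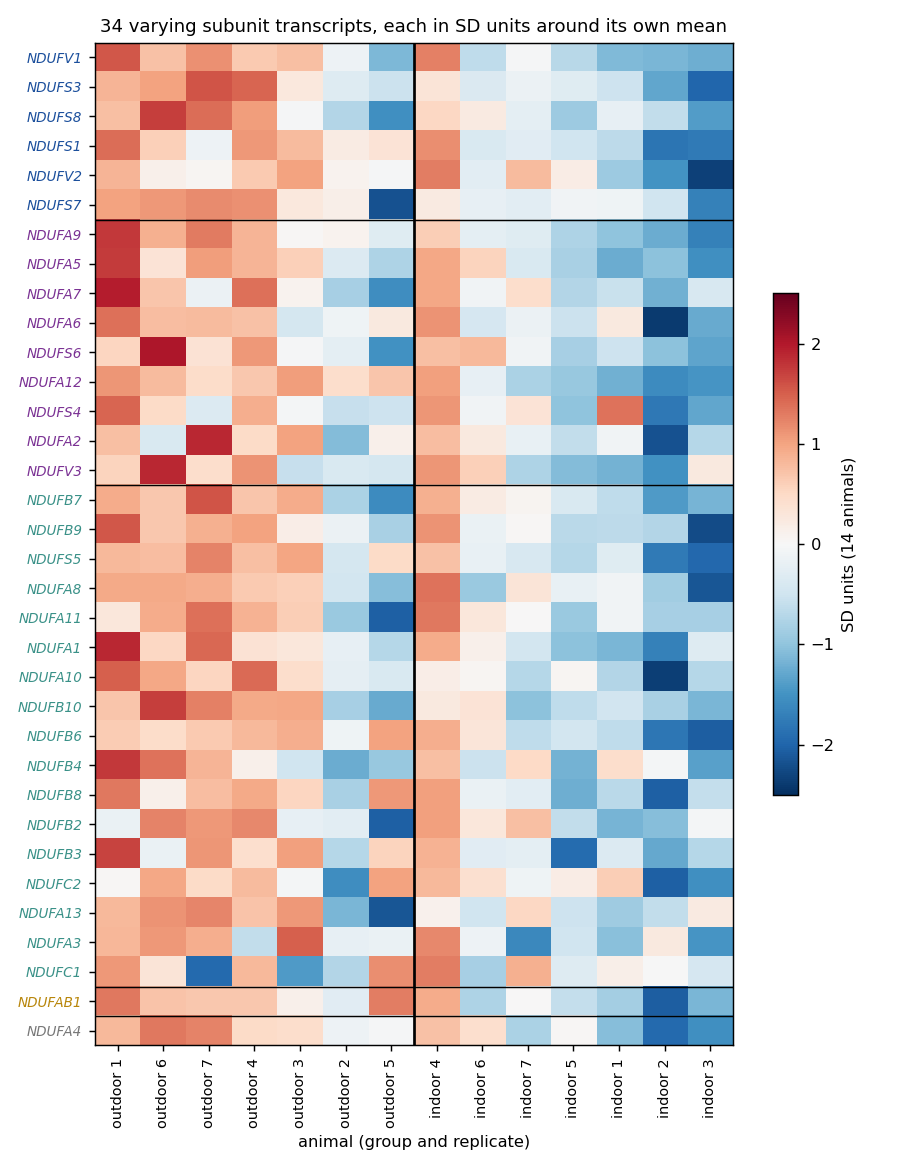
The 34 varying members (rows, by role and then by their correlation with the rest) in the 14 animals (columns, outdoor/pasture-fed left and indoor/concentrate-fed right, each from high to low mean). Colour gives each gene's distance from its own mean in SD units over the 14 animals; whole columns are red or blue, with indoor/concentrate-fed replicate 4 red among mostly blue indoor columns.

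With the group means taken out, the members still went up and down together between animals. Correlations here are of deviations from group means over the 14 animals, and the points share the array and its normalisation, so they are a description with no test. Over the 561 pairs of varying members the median Pearson r was 0.60, with quartiles of 0.45 and 0.73. Of the pairs 98.2% were above 0 and 68.4% above 0.5. Over all pairs of 4641 varying genes of the array the median r was 0.026, and 9.19% of pairs were above 0.5. A single component held 60.2% of the members' variance within groups, beside 20.9% over all varying genes, and the next held 12.5%. The median r was 0.53 among the outdoor and 0.70 among the indoor animals, and this difference was not tested. Without the animals farthest from the median, indoor/concentrate-fed replicates 4 and 2, it was 0.48.

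The core subunits had the highest median r among themselves, 0.71, followed by the accessory subunits of the matrix arm at 0.62 and of the membrane arm at 0.55. Between the accessory subunits of the matrix and membrane arms it was 0.61, close to the values within each arm. The closest pairs joined the arms or a single arm alike: NDUFB9 with NDUFA9 at 0.94 and NDUFB7 with NDUFA11 at 0.93. Measured against the mean of the other members, NDUFA9 (0.92), NDUFB7 (0.90) and NDUFV1 (0.90) were closest. NDUFA13, an accessory subunit also known as GRIM-19, was lower at 0.58, NDUFA3 was at 0.45 and NDUFC1 was lowest at 0.21. The lowest pair of all was NDUFC1 with NDUFB10 at -0.19. NDUFC1 was thus both the 1 member lower outdoors and the member least tied to the rest.

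Of 4607 other varying genes, those most like the members' shared deviation over the 14 animals were MRPS14 (r = 0.94), TMEM143 (0.93), NDUFAF8 (0.92), PDP1 (0.92), MTRES1 (0.91) and UQCR10 (0.91). The median over these genes was 0.054. MRPS14 is a protein of the mitochondrial ribosome, NDUFAF8 an assembly factor of complex I, PDP1 the phosphatase that activates pyruvate dehydrogenase and UQCR10 a subunit of complex III. Between the groups the difference was 0.22 (SE 0.11) for MTRES1, 0.18 (SE 0.18) for TMEM143 and 0.15 (SE 0.062) for PDP1. It was 0.12 (SE 0.045) for UQCR10, 0.080 (SE 0.090) for MRPS14 and -0.022 (SE 0.059) for NDUFAF8. PDP1 and UQCR10 had an unadjusted p under 0.05 in limma, and the differences of these genes were not compared with each other. The lowest r values were -0.89 for PLAGL1, -0.88 for USP46 and -0.86 for FMNL2.

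The other genes of the pathway were read as lists. Of 19 assembly factors of complex I, 10 were measured and 5 were varying. Of these 4 were higher outdoors, 1 of them at an unadjusted p under 0.05, beside 9.23% of all varying probe sets. This was TMEM70, an assembly factor shared with ATP synthase, with a difference of 0.20 (SE 0.089, limma p = 0.0467, exact permutation p = 0.0507). The factors NDUFAF3 and NDUFAF5 had differences of 0.10 (SE 0.062) and 0.13 (SE 0.15). Between animals the mean deviation of the varying assembly factors followed that of the subunits with r = 0.92, but single factors differed in this. NDUFAF8 had r = 0.92 and ECSIT r = 0.87, while TMEM70 had r = -0.091, and the median r within the list was 0.36.

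Of 15 genes that feed NADH to the chain or reduce quinone by other routes 12 were measured, all varying. Of these 10 were higher outdoors and 5 had an unadjusted p under 0.05, 0 passed the adjusted test, and the median difference was 0.14. The smallest p values were those of SLC25A12, the aspartate-glutamate carrier of the malate-aspartate shuttle, with a difference of 0.56 (SE 0.17, exact permutation p = 0.00175), and ETFB, of the electron transfer flavoprotein, with 0.24 (SE 0.079, exact permutation p = 0.0140). Of 41 nuclear subunits of complexes II to V, 39 were measured and 34 were varying. Of these 33 were higher outdoors and 23 had an unadjusted p under 0.05, while 0 passed the adjusted test. Their median difference was 0.13, beside 0.11 for the complex I members. Beside both lists, 47.5% of all varying probe sets were higher outdoors, and 9.23% were higher at an unadjusted p under 0.05. COX7A1, the muscle form of a complex IV subunit, differed by 0.28 (SE 0.060, exact permutation p = 0.00117) and UQCRH, of complex III, by 0.12 (SE 0.027, exact permutation p = 0.00175). The order of the animals was nearly that of complex I, with r = 0.95 between the deviations, and the median r within these complexes was 0.66. The difference between complex I and the other complexes was not tested.

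Markers of fibre types and of other cells of the tissue moved to different degrees with these results, and their part in them was not tested. The mean of a list covers all its measured genes, flat ones included, whereas its r with the members uses the varying genes. Of 8 slow-fibre genes measured, 7 were varying and all 7 were higher outdoors, 1 of them at an unadjusted p under 0.05. Of all varying probe sets 9.23% were higher and 10.7% lower at this threshold. The mean of the slow-fibre list ranged from 13.14 to 13.33 outdoors and from 12.61 to 13.28 indoors. Its lowest value was in indoor/concentrate-fed replicate 3, which was also the lowest animal for the complex I members. The deviations of the slow-fibre list followed those of the members with r = 0.46, and those of the fast-fibre list with r = 0.34. Without indoor/concentrate-fed replicates 4 and 2 these were 0.39 and 0.094. By ranks (Spearman) over all 14 animals they were 0.27 and 0.30. Of 6 varying fast-fibre genes 2 were higher, and 1 had an unadjusted p under 0.05 upward and 3 downward. MYH1, the fast IIX myosin, was the one upward, with a difference of 0.14 (SE 0.029). The 3 downward were TNNI2 at -0.074 (SE 0.032), ACTN3 at -0.042 (SE 0.017) and TNNC2 at -0.015 (SE 0.0044). The median difference over the varying fast-fibre genes was -0.016.

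The endothelial list differed most between the groups. All 8 of its varying genes were higher outdoors with an unadjusted p under 0.05, and the median difference was 0.36. Of all varying probe sets 9.23% were higher at this threshold, and 0 genes of the list passed the adjusted test. PECAM1, an adhesion protein of vessel walls, was higher in every outdoor animal than in any indoor animal, as were 0.488% of varying probe sets. The list's mean ranged from 8.50 to 8.89 outdoors and from 8.04 to 8.52 indoors. Between animals within groups its deviations followed those of the complex I members with r = 0.29, and 0.19 without indoor/concentrate-fed replicates 4 and 2. Outdoor/pasture-fed replicates 5 and 2, the lowest of their group for complex I, were at 8.70 and 8.58 in this list. The outdoor mean of the list was 8.65.

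The remaining lists separated the groups less. The 11 adipocyte genes had 2 higher and 9 lower outdoors with 0 at an unadjusted p under 0.05, and ranged from 7.23 to 7.73 outdoors and from 7.199 to 8.50 indoors, with indoor/concentrate-fed replicate 1 highest. The leukocyte and macrophage list had 7 of 7 varying genes higher and 1 at an unadjusted p under 0.05. Of all varying probe sets 9.23% were higher at this threshold. The mean of the 9 measured genes of that list, flat ones included, ran from 6.73 to 7.26 outdoors and from 6.44 to 7.17 indoors. The fibroblast and matrix list had 5 of 8 genes higher, the smooth muscle list 5 of 6 and the red blood cell list 0 of 2 varying genes, with 0 at an unadjusted p under 0.05 in limma. The first ranged from 10.46 to 11.98 outdoors, highest in replicate 5, and from 10.59 to 11.63 indoors. The smooth muscle list ranged from 8.24 to 8.93 and from 8.05 to 8.89. The red blood cell list, with its flat genes included, ranged from 5.71 to 5.86 and from 5.75 to 5.87. The deviations of these 5 lists had r from -0.30 to 0.082 with those of the complex I members. These values rested in part on indoor/concentrate-fed replicates 4 and 2: without both, the red blood cell list went from 0.082 to -0.60, the adipocyte list from -0.14 to 0.14 and the smooth muscle list from -0.052 to 0.17.

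**Figure D4:**
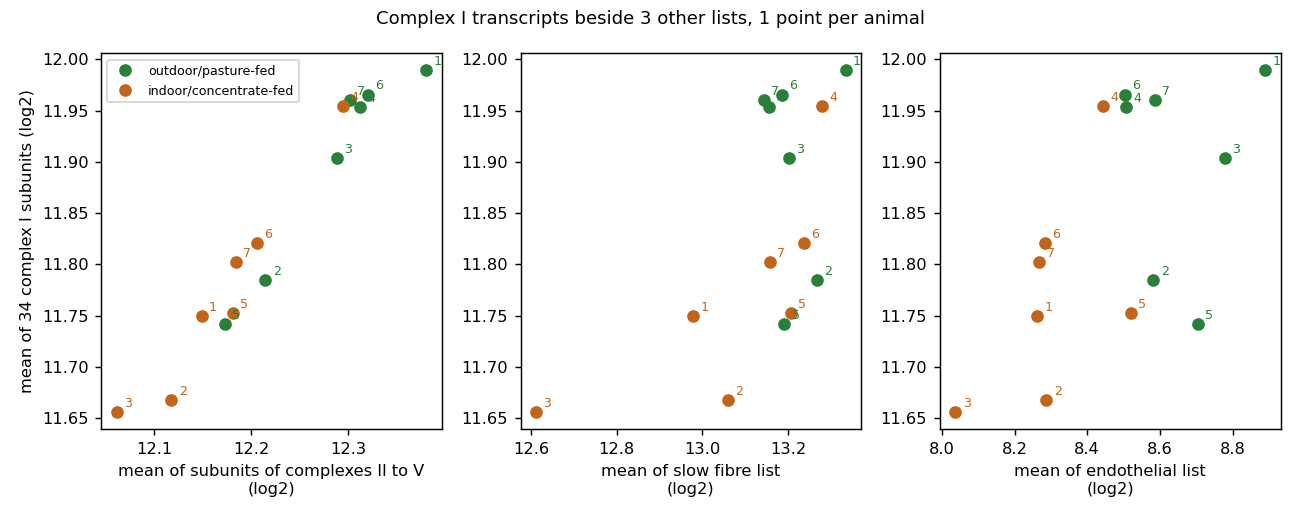
Mean of the 34 complex I members (log2, vertical axis) against the mean of the subunits of complexes II to V, of the slow fibre list and of the endothelial list (log2, horizontal axes) in each of the 14 animals, numbered by replicate. The animals lie along 1 line for complexes II to V across both groups, while for the endothelial list the outdoor animals lie to the right of most indoor animals at any level of complex I. List means include the flat genes.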

How the data were processed

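LD muscle RNA was amplified, labelled with biotin and hybridised to 14 Affymetrix Bovine arrays. The authors deposited log2 expression values, which they had quantile normalised and summarised per probe set with FARMS, a factor analysis that shrinks probe sets with no shared signal to near constant values. No normalisation was added. The 112 control probe sets were left out. Groups were those of the labels. The group difference was fitted over 24016 probe sets in limma 3.58.1 (lmFit, then eBayes; R 4.3.3). P-values were adjusted by Benjamini-Hochberg, the threshold was 0.05, and the fit was tested on simulated data. Exact permutation tests were two-sided, and unadjusted p-values in counts are those of limma. Correlations used deviations from group means, scaled per gene, in numpy 2.4.6. Symbols came from the platform annotation (13292 probe sets with 1 symbol, 86 with several and 10638 with none) and all member symbols matched RefSeq.

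The members and lists, the SD of 0.01 that defines a flat probe set, and the rule for named genes were chosen with earlier results of these data known. The rule gave full values for the core subunits and for the 3 members of smallest p in each other role, the 6 most and 3 least alike genes, and in pathway lists the genes passing the adjusted test, otherwise the 2 of smallest p. Further genes were named after their values were seen. The number of arrays limits the precision, and genome positions were not used here. Alternatives were other priors, filters, scalings, probe set choices, array weights, the array scaling factor as a covariate, a replicate block and leaving out each animal.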

Additional observations from a re-analysis of the deposited data

Results flagged for a closer look

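Of 70 groups of 7 animals tested for a single distant animal, 4 held one, where chance gives about 1 in 20 groups, or 3.5. Each had an animal whose gap to its nearest neighbour was a larger share of the group's range than Dixon's 95% critical value. NDUFA10 was at 9.37 in indoor/concentrate-fed replicate 2, with the next animal at 9.77. NDUFC2 was at 12.67 in outdoor/pasture-fed replicate 2, with the next at 12.75. NDUFS7 was at 11.31 in outdoor/pasture-fed replicate 5, with the next at 11.93, and at 11.44 in indoor/concentrate-fed replicate 3, with the next at 11.76. All 4 were low values.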

How the results depend on the processing

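The count of members past the adjusted threshold was 0 upward and 0 downward in every alternative that kept all animals and gave such a count. It was 0 to 1 upward when single animals were left out. The count at an unadjusted p under 0.05, 13 over all 38 genes, was 10 with varying probe sets only, 18 with array weights and 12 without the flat members, an alternative chosen after seeing the data. It was 9 to 20 when single animals were left out, and the median difference was then 0.080 to 0.12. The median r between members was 0.52 to 0.63 without single animals. Among 884 differences of single genes under alternatives 880 kept direction and side of the threshold, 1 gained the call and 3 reversed: the difference of NDUFA5 was -0.014 with the mean of its probe sets, and the difference of NDUFC1 ran from -0.033 to 0.0079 when single animals were left out, above 0 without outdoor/pasture-fed replicates 3 (0.0011) and 7 (0.0079). Many of the differences that kept direction could not have changed it. The replicate block, the other priors and the filters left each difference as it was. Leaving out the flat members reused the main fit. The causes of the reversals were not tested. A replicate block gave 15 members at an unadjusted p under 0.05 and 0 calls. Same-numbered animals did not deviate together, with correlations from -0.18 to 0.24, so the numbers were not used as pairs. The number of arrays limits the precision: with 7 a group, the 95% interval of the difference excluded 0 in 12 of the 34 varying members.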

Other observations

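Of 17 regulators of mitochondrial biogenesis 10 were measured and 7 were varying, of which 4 were higher and 3 lower outdoors, with 0 at an unadjusted p under 0.05 in limma and a median difference of 0.017. PPARGC1A, the coactivator PGC-1 alpha, had the smallest p, with a difference of -0.27 (SE 0.16, exact permutation p = 0.118), opposite in sign to the complex I members. NRF1, a transcription factor of nuclear respiratory genes, differed by 0.017 (SE 0.087) and SIRT3, a mitochondrial deacetylase, by 0.22 (SE 0.15). Between animals the deviations of the 7 varying regulators differed in how they followed those of the members. The r was 0.86 for SIRT3, 0.70 for NRF1, 0.55 for TFB2M and 0.22 for PPARGC1A. It was 0.015 for PPRC1, -0.23 for SIRT1 and -0.41 for YY1. The list as a whole had r = 0.49, but 0.21 by ranks (Spearman), and the median r within it was 0.063.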
